A study of Mus musculus with 39 samples.

Results

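The genes that make, take up, move, store and export cholesterol were read across whole mouse testis in 4 genotypes at 2 ages. The set was a list of 32 genes, and a gene counted as measured when the deposited table held a probe set annotated with its symbol alone, using the probe set with the highest mean where there were several. This gave 29 of the 32 genes, out of 22180 genes with such a probe set, and all 29 passed the filter on dim probe sets that left 19007 genes for testing. They comprised 16 of 18 enzymes of synthesis, 5 of 5 regulators, 4 of 4 genes of uptake and intracellular transport, 1 of 2 genes of storage and 3 of 3 genes of export. Acat2, Idi1 and Soat1 had no such probe set and were not analysed here.

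The 39 arrays each held biotin-labelled cDNA from a whole testis of a separate biological replicate. Wild-type littermates (WT) contributed 8 arrays at 2 weeks and 8 at 2 months. Sf1:Cre,Prkar1a fl/fl mice (prKO) contributed 4 and 3, Amh:Cre,Prkar1a fl/fl mice (srKO) 4 and 4, and Cyp11a1:Cre,Prkar1a fl/fl mice (lrKO) 4 and 4. All 3 lines thus shared floxed alleles of Prkar1a, which encodes a regulatory subunit that restrains the cAMP-dependent protein kinase, and they differed in the driver of Cre. The Sf1 driver works in somatic precursor cells of the gonad and in adrenal cortex, the Amh driver in Sertoli cells, and the Cyp11a1 driver in cells that make steroids, namely Leydig cells in the testis. Prkar1a was not called lower than in WT in srKO at 2 months or in lrKO at either age. It was lower in prKO at 2 weeks (log2 change -0.78 ± 0.07, SE) and at 2 months (-0.30 ± 0.09) and in srKO at 2 weeks (-0.48 ± 0.07). It was higher in the arrays labelled srKO at 2 months (0.24 ± 0.08, adjusted p = 0.03, limma), and the change in the arrays labelled lrKO was 0.05 ± 0.07 at 2 weeks and 0.04 ± 0.08 at 2 months. Which part of the gene the probe set covers was not tested, so in those groups the labels rest on the titles alone. The extraction label speaks of adrenal glands, against whole testis in the rest of the labels. The 7 Leydig cell markers with a probe set all had group means above the filter in every group, as did all 10 Sertoli cell markers and, at 2 months, all 7 spermatid markers. Of the 5 genes of the adrenal cortex list on the array, 3 had group means above the filter in WT. Their mean at 2 weeks ran from 6.22 to 6.83 in prKO and from 4.90 to 5.18 in WT, and srKO and lrKO overlapped WT. At 2 months it ran from 6.27 to 7.37 in prKO and 5.38 to 5.73 in srKO. In lrKO it ran from 5.43 to 5.60, against 4.98 to 5.32 in WT. The source of these differences was not tested.

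Cholesterol is built from acetyl-CoA through mevalonate, isoprenoids, squalene and lanosterol. Its synthesis is set largely by the transcription factor SREBP2, the product of Srebf2, which is escorted by SCAP and held back by INSIG proteins when membranes are rich in sterol. Steroid-producing cells also take cholesteryl esters from high-density lipoprotein through the receptor SR-BI, hydrolyse stored esters with hormone-sensitive lipase, and turn the freed cholesterol into steroids. Male germ cells make sterols too, and the lanosterol demethylase CYP51 is abundant in their late stages.

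Promoters of the enzymes carried a shared short motif, and 4 of them are shown because their genes were among those with higher levels in prKO at 2 weeks. The sequences are the 250 bases before the annotated start of transcription in RefSeq (GRCm38.p6), written from 5′ to 3′ on the gene's strand. Capitals mark the CCAAT box, the letters of the NF-Y factor that acts together with SREBP2 (read as ATTGG on the opposite strand), and in Hmgcs1 also the sterol response element TCACCCCAC.
Hmgcs1 (chr13:119690101-119690350, plus strand): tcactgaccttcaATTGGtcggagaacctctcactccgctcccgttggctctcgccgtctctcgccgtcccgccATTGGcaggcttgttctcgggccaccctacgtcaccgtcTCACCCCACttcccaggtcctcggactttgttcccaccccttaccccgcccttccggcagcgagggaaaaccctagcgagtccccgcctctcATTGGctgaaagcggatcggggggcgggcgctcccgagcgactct
Cyp51 (chr5:4104698-4104947, minus strand): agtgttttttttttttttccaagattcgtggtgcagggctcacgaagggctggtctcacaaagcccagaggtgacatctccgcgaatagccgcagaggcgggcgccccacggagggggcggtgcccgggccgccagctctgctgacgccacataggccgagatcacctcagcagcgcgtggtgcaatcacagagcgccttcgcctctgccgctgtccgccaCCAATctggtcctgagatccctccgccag
Nsdhl (chrX:72918271-72918520, plus strand): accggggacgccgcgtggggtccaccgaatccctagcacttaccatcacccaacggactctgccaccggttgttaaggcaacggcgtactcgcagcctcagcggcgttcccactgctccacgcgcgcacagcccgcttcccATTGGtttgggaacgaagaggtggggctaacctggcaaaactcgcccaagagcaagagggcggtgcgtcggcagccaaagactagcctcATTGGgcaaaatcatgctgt
Hsd17b7 (chr1:169969206-169969455, minus strand): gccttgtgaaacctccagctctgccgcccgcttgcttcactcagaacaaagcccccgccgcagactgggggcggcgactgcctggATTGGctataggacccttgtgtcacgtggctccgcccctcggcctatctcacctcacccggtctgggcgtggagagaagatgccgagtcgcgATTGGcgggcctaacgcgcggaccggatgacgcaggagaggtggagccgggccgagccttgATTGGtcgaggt

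The sterol response element of Hmgcs1 began at position -137 relative to the start. Of the measured genes, 22 had a window that was searched, and 13 of these were enzymes of synthesis. Measured genes on 1 chromosome were left out of this search, whereas every window of the RefSeq table entered the background. Windows of 300 bases, 250 before and 50 after the start, were searched on both strands. CCAAT occurred in 13 of the 16 windows of these enzymes, with at least 1 in each gene, and in 19 of the 32 windows of all 22 genes, against 37.4% of all 32851 windows in the table. The letters TCACNCCAC of the sterol response element occurred in 1 of the 32 windows, that of Hmgcs1, against 1.24% of all windows. Only these letters, with any base at N, were searched, so an element spelled otherwise was not counted. The search therefore does not show that the other genes lack such an element. The cAMP response element TGACGTCA occurred in 0 of the 32 windows, against 1.79% of all windows and 2.53% of the windows of tested genes. The steroidogenic factor 1 site CAAGGTCA occurred in 1 of the 32, a window of Dhcr7, against 1.56% and 1.24%. At such low shares, 32 windows are too few to tell a count of 0 or 1 from the background. A match describes letters in the window and does not show binding. Fdps, Fdft1 and Sqle had no window.

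All 16 measured enzymes of synthesis were higher in prKO than in WT testes at 2 weeks. Their log2 changes ran from 0.31 for Pmvk to 1.47 for Cyp51, with a median of 0.62. Among the 29 genes, 20 were called higher and 0 lower at an adjusted p under 0.05 (limma, Benjamini-Hochberg over all 19007 genes). Over all genes tested 10.5% were called, 7.90% higher and 2.59% lower, and the median log2 change was -0.01, against 0.37 for the 29 genes. In 15 of the 29, every prKO array lay above every WT array, as it did in 4.27% of all genes; 0 of the 29 lay wholly below WT, against 1.47%.

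Cyp51, which removes a methyl group from lanosterol, changed most. Its log2 intensity was 8.99, 8.77, 9.0 and 9.73 in the 4 prKO arrays, against 7.13 at the lowest, 7.73 at the median and 8.09 at the highest of 8 WT arrays. The groups did not overlap. The rise was 2.76-fold (log2 1.47 ± 0.18, adjusted p = 2.1e-05, limma). WT replicates 1 to 4 (7.86 to 8.09) all lay above WT replicates 5 to 8 (7.13 to 7.60) for this gene. Such a split of the WT arrays occurred upwards in 6 of the 29 genes (Mvk, Fdft1, Cyp51, Sc5d, Stard4 and Npc2) at 2 weeks, against 8.14% of all genes, and downwards in 0, against 3.01%. At 2 months it occurred upwards in 3 (Cyp51, Ebp and Insig1), against 7.59%, and downwards in 1 (Srebf2), against 4.12%.

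Nsdhl, a sterol dehydrogenase of the demethylation complex, read 10.06, 9.87, 9.90 and 10.47 in prKO, against 8.68, 8.92 and 9.41 as the lowest, median and highest WT values. The lowest prKO array thus stood above the highest WT array, and the rise was 2.15-fold (log2 1.10 ± 0.13, adjusted p = 1.2e-05, limma). Its partners in the removal of the remaining methyl groups rose as well. Msmo1, the sterol methyl oxidase, rose by 0.80 ± 0.11 and Hsd17b7, the sterol ketoreductase, by 0.84 ± 0.14 on the log2 scale.

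Fdps, which makes farnesyl diphosphate, was the early enzyme with the largest change. It read 8.95, 8.74, 8.46 and 9.32 in prKO and between 7.54 and 8.30 in WT, with no overlap, and rose 1.88-fold (log2 0.91 ± 0.15, adjusted p = 0.0004, limma). The other enzymes before lanosterol moved less. Hmgcs1, the cytosolic HMG-CoA synthase, rose by 0.40 ± 0.10. The mevalonate kinases Mvk and Pmvk rose by 0.38 ± 0.11 and 0.31 ± 0.09, and the decarboxylase Mvd by 0.37 ± 0.08. The squalene synthase Fdft1 rose by 0.43 ± 0.12, the squalene epoxidase Sqle by 0.34 ± 0.08 and the lanosterol synthase Lss by 0.57 ± 0.08.

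The last steps moved together at 2 weeks. Dhcr7, which reduces 7-dehydrocholesterol to cholesterol, read 9.40, 9.32, 9.23 and 9.57 in prKO against 8.34 to 8.69 in WT and rose 1.79-fold (log2 0.84 ± 0.08, adjusted p = 1.2e-06, limma). None of its prKO arrays fell within the WT range. The sterol desaturase Sc5d rose by 0.81 ± 0.11 and the sterol isomerase Ebp by 0.35 ± 0.10. The sterol reductase Tm7sf2, which comes directly after Cyp51 in the pathway order, rose by 0.67 ± 0.10.

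The size of the 2-week rise differed between prKO animals. Replicate 4 had the highest level in 13 of 16 enzymes and replicate 3 the lowest in 13. Replicate 3 was also among the arrays high in Adam7, an epididymal gene (7.08), and the part of this in its levels was not tested. Without replicate 4 the count of called genes fell from 20 to 12, and with WT replicates 1 to 4 as the only controls it was 13. Called under every setting tried were 10 of the genes. Pmvk, Ebp and Insig1 were the calls lost most often. Pmvk was no longer called when any 1 prKO array or WT replicate 2, 3, 6 or 8 was left out (adjusted p from 0.051 to 0.14). Ebp was lost without prKO replicate 1, 2 or 4 or WT replicate 5, 6, 7 or 8 (0.051 to 0.12), and Insig1 without prKO replicate 1, 2 or 4 or WT replicate 6, 7 or 8 (0.054 to 0.15). Without prKO replicate 4, Mvk, Fdft1, Hmgcs1, Sqle and Npc1 were also lost (0.053 to 0.11), and without prKO replicate 1, Mvk and Npc1 (0.14 and 0.06).

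**Figure D1:**
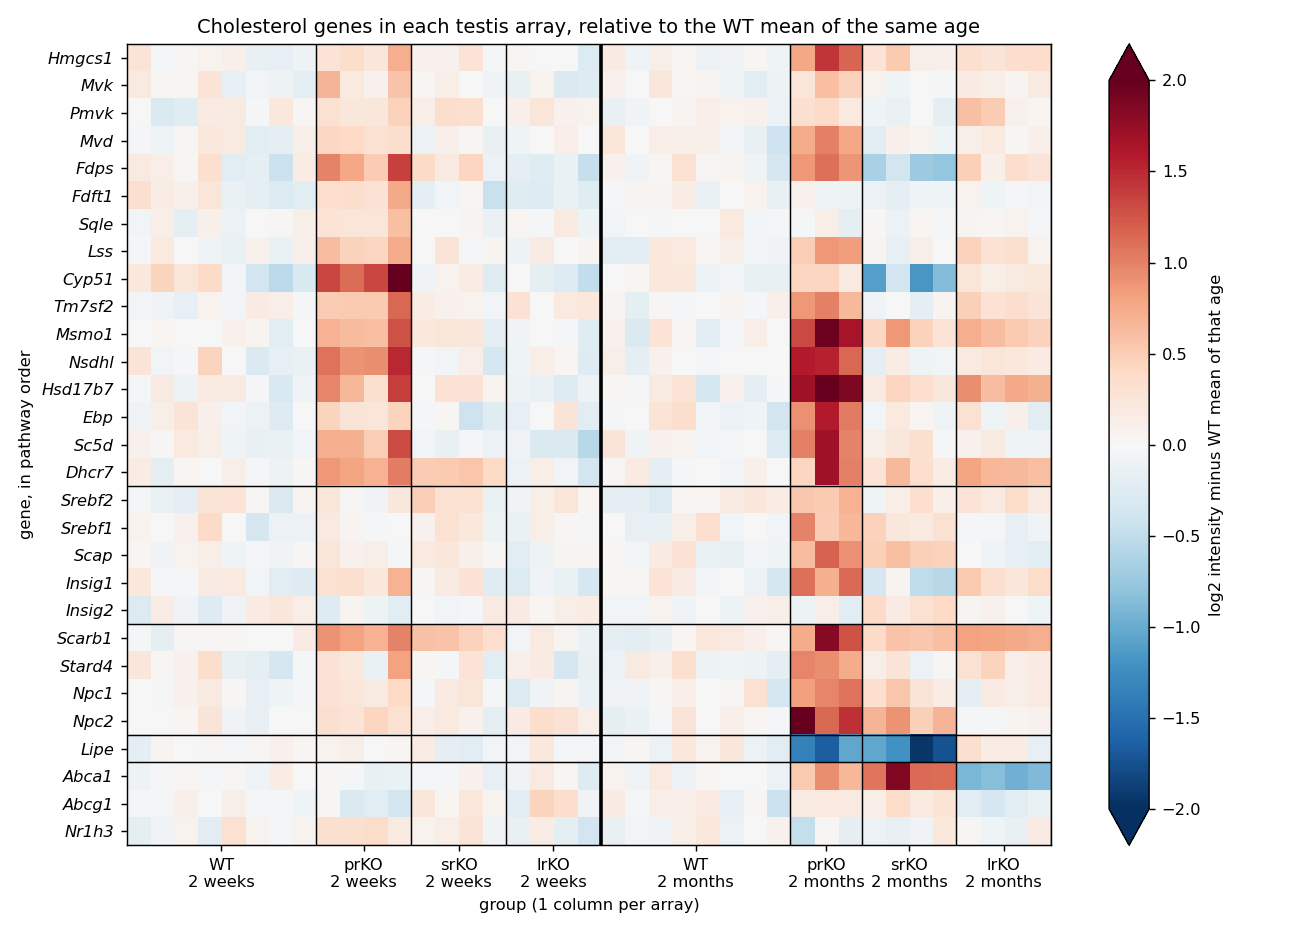
Log2 intensity of the 29 genes in each of the 39 arrays, as the difference from the WT mean of the same age (colour scale from -2 to 2 with pointed ends for values beyond it), with genes in pathway order on the vertical axis and 1 column per array. The enzymes from Hmgcs1 to Dhcr7 are red in prKO at both ages, except Fdft1 and Sqle at 2 months, and Abca1 is red in srKO and blue in lrKO at 2 months.

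The regulators of the pathway gave few calls at 2 weeks. Insig1, which retains SCAP in the endoplasmic reticulum and is itself a target of SREBP, rose by 0.38 ± 0.11 in prKO (adjusted p = 0.032, limma). Srebf2 read 9.73, 9.51, 9.42 and 9.72 in prKO, within the WT range of 9.21 to 9.76 (log2 change 0.10 ± 0.12). The changes of Srebf1, Scap and Insig2 were 0.05 ± 0.10, 0.11 ± 0.07 and -0.13 ± 0.09, none of them called.

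Scarb1, which encodes the lipoprotein receptor SR-BI, was higher in prKO at 2 weeks. It read 10.67, 10.57, 10.47 and 10.76 in prKO, against 9.59, 9.78 and 9.93 as the lowest, median and highest WT values, with a gap between the groups. The rise was 1.80-fold (log2 0.85 ± 0.07, adjusted p = 1.8e-07, limma). Npc1 and Npc2, which pass cholesterol out of the lysosome, rose by 0.28 ± 0.07 and 0.34 ± 0.08. Stard4, a sterol carrier of the cytosol, ran from 7.2 to 8.14 in prKO and from 7.01 to 7.69 in WT and was not called (0.29 ± 0.15, adjusted p = 0.22, limma).

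Storage and export genes were not called in prKO at 2 weeks. The change was 0.05 ± 0.07 for Lipe, the hormone-sensitive lipase, and -0.07 ± 0.07 for Abca1, the transporter that loads cholesterol onto apolipoprotein A-I. It was -0.21 ± 0.10 for Abcg1, which exports cholesterol to high-density lipoprotein, and 0.30 ± 0.10 for Nr1h3, the liver X receptor alpha (adjusted p = 0.19 and 0.058, limma). Nr1h3 passed the threshold under 8 of the other settings, with adjusted p from 0.019 to 0.049.

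Markers of Leydig cells also differed between these groups. The mean of 7 Leydig markers lay between 10.03 and 10.44 in prKO and between 8.21 and 9.18 in WT at 2 weeks, and 5 of the 7 were called higher. The mean of 8 macrophage markers ran from 7.23 to 7.56 in prKO and from 6.80 to 7.33 in WT, with 3 of 8 called higher. For the 6 endothelial markers it ran from 7.62 to 7.99 against 7.08 to 7.90, with 4 of 6 called higher. Over all genes 7.90% were called higher and 2.59% lower. Other lists leaned down. Of the 10 Sertoli markers 2 were called lower and 0 higher. Of the 7 spermatocyte markers 0 had a positive change (median -0.55), and 0 were called. The part of these cell types in the rise of the cholesterol genes was not tested. In RNA of whole testis, fewer cells of a type and less RNA per cell cannot be told apart.

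At 2 weeks srKO testes shared neither the breadth nor the size of the rise. Called higher were 2 of the 29 genes, Dhcr7 and Scarb1, and 0 were lower, against 0.784% and 0.0894% of all genes, or 0.873% in all. Dhcr7 read 9.04, 9.06, 9.10 and 8.93 in srKO, all above the highest WT array at 8.69, and rose 1.41-fold (log2 0.50 ± 0.08, adjusted p = 0.0061, limma). Scarb1 read 10.35, 10.33, 10.23 and 10.10, all above the highest WT array at 9.93, and rose 1.40-fold (0.48 ± 0.07, adjusted p = 0.0023, limma). Both calls held under every setting tried. These were also the 2 of 29 genes with every srKO array above every WT array, against 1.38% of all genes, and 0 lay wholly below, against 0.268%. The median change of the 16 enzymes was 0.04.

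The difference between prKO and srKO was tested directly. At 2 weeks 15 of the 29 genes were higher in prKO than in srKO and 0 lower, against 6.90% and 4.85% of all genes (11.8% in all). Cyp51 differed by 1.49 ± 0.21, Nsdhl by 1.18 ± 0.15 and Sc5d by 0.89 ± 0.13 on the log2 scale. Dhcr7 and Scarb1 differed by less, 0.34 ± 0.10 and 0.36 ± 0.08 (adjusted p = 0.024 and 0.0077, limma). The Dhcr7 difference was no longer called without prKO replicate 1 or 4 or srKO replicate 4 (adjusted p from 0.055 to 0.09). Fdps and Sqle lost theirs without prKO replicate 4 (0.059 and 0.056), and Npc2 lost its call under 11 of the other settings, among them without any 1 prKO array or srKO replicate 1, 3 or 4 (0.053 to 0.14).

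In the arrays labelled lrKO, 0 of the 29 genes were called at 2 weeks by limma, where 0.10% of all genes were called (0.0368% higher and 0.0631% lower). The log2 changes ran from -0.30 for Sc5d to 0.23 for Npc2, with a median of -0.04. The 4 lrKO arrays read 9.72, 9.95, 9.82 and 9.63 for Scarb1 and 8.42, 8.65, 8.48 and 8.17 for Dhcr7, overlapping WT for both genes. In 0 of the 29 genes were the lrKO arrays all above or all below WT, against 0.384% and 0.589% of all genes. With WT replicates 1 to 4 as the only controls, 1 gene was called, Fdft1, at -0.42.

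At 2 months cholesterol genes of synthesis, regulation and transport were higher in prKO than in WT. Of the 29 genes 23 were higher and 1 lower, in a comparison in which 48.4% of all genes were called, 26.0% higher and 22.4% lower. The median log2 change was 0.84 over the 29 genes and 0.02 over all genes. Every prKO array lay above every WT array in 23 of the 29 genes, against 18.3% of all genes. Called under every setting tried were 22 of the genes. Higher at both ages were 18 genes, 2 were called at 2 weeks alone (Fdft1 and Sqle), and 5 at 2 months alone (Srebf2, Srebf1, Scap, Stard4 and Abca1).

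Hsd17b7 had the largest change of the enzymes at 2 months. It read 7.70, 8.32 and 7.87 in prKO, against 5.66, 6.02 and 6.28 as the lowest, median and highest WT values, and did not overlap. The rise was 3.88-fold (log2 1.96 ± 0.13, adjusted p = 2.7e-09, limma). Msmo1 read 8.20, 8.84 and 8.52 against 6.58 to 7.14 in WT, a 3.13-fold rise with no overlap (1.65 ± 0.14). Nsdhl read 9.77, 9.72 and 9.33 against 8.01 to 8.30, a 2.69-fold rise (1.43 ± 0.09).

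The remaining enzymes called at 2 months spread from the first step to the last. Hmgcs1 rose by 1.13 ± 0.11, Sc5d by 1.23 ± 0.13, Ebp by 1.18 ± 0.15, Fdps by 0.95 ± 0.11, Mvd and Tm7sf2 by 0.84 each, and Lss by 0.73 ± 0.11. Dhcr7 rose by 1.05 ± 0.16, with 1 prKO animal at 8.25, 1 at 9.52 and 1 at 8.83 against 7.62 to 7.98 in WT. Mvk and Pmvk changed by 0.43 ± 0.09 and 0.30 ± 0.10. Pmvk was not called without prKO replicate 1 or 2 (adjusted p = 0.059 and 0.093, limma).

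Fdft1 and Sqle were the 2 enzymes not called in prKO at 2 months, and the change of Cyp51 was among the smaller ones. Fdft1 read 11.23, 11.05 and 11.05 in prKO and 11 to 11.30 in WT (log2 change -0.03 ± 0.07), and Sqle read 9.17, 9.33 and 9.03 against 9.15 to 9.40 (-0.04 ± 0.07). Both overlapped WT. Cyp51 read 9.47, 9.47 and 9.22 against 8.89 to 9.25, a change of 0.34 ± 0.13 (adjusted p = 0.03, limma) that was not called without prKO replicate 1 or 2 (adjusted p = 0.1 and 0.11). The change in prKO was smaller at 2 months than at 2 weeks for all 3 genes when the ages were compared directly, by 0.47, 0.37 and 1.12 for Fdft1, Sqle and Cyp51 (adjusted p = 0.012, 0.0064 and 0.00039, limma). These 3 genes, with Fdps, were also the enzymes that were higher at 2 months than at 2 weeks in WT. The same WT arrays enter both comparisons, and a rise in WT lowers the change in prKO, so the overlap is partly built in. For Fdps the change in prKO was not called different between ages. Its means were 8.87 in prKO and 7.96 in WT at 2 weeks, and 9.28 and 8.33 at 2 months.

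**Figure D2:**
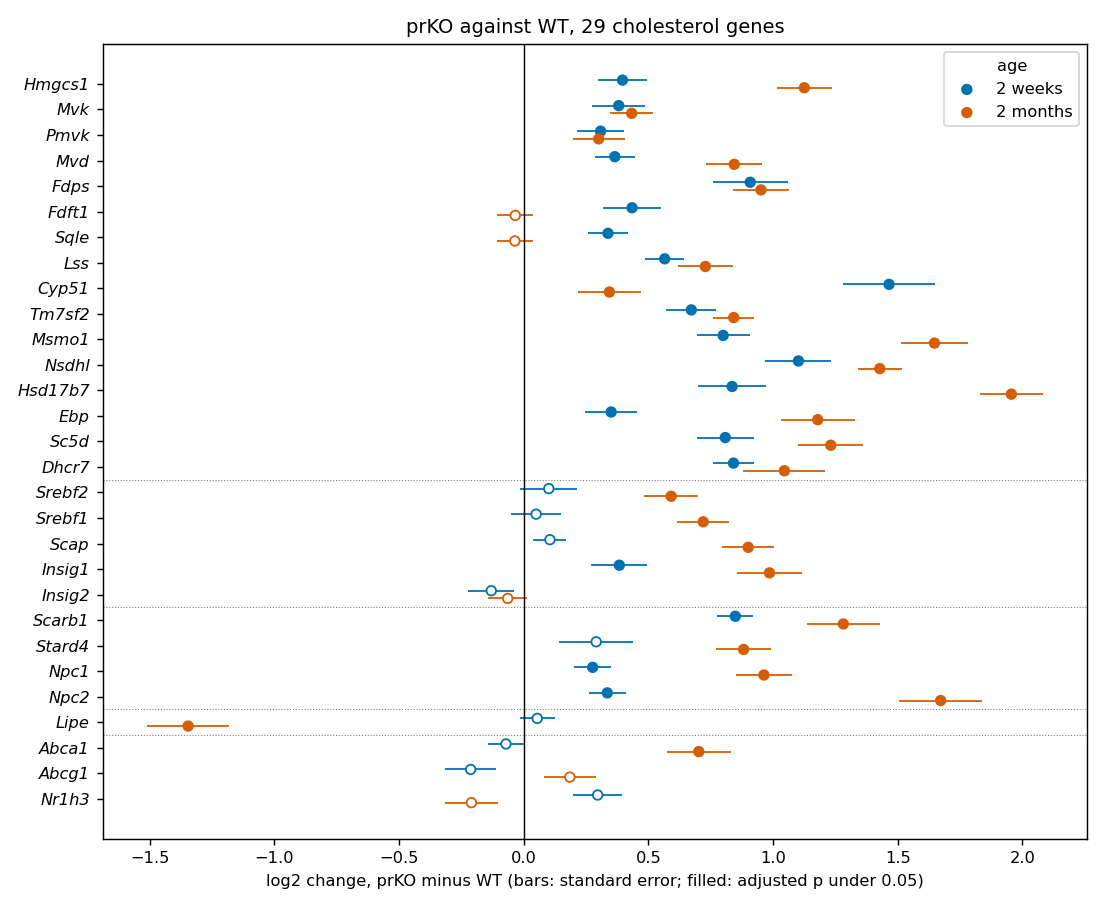
Log2 change of prKO against WT for each of the 29 genes at 2 weeks (blue) and 2 months (orange), with standard errors as bars and filled points for adjusted p under 0.05. At 2 months most points lie to the right of their 2-week partners, whereas Cyp51 falls from 1.47 to 0.34 and Lipe stands at -1.35.

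Among the regulators, 4 of 5 were higher and 0 lower in prKO at 2 months, against 26.0% and 22.4% of all genes. Srebf2 read 8.44, 8.43 and 8.60, all above the WT maximum of 8.13 (log2 change 0.59 ± 0.11, adjusted p = 0.00014, limma). Srebf1, whose products drive fatty acid synthesis as well, rose by 0.72 ± 0.10. Scap rose by 0.90 ± 0.10 and Insig1 by 0.99 ± 0.13, whereas Insig2 changed by -0.06 ± 0.08. A second, dimmer probe set for Scap had group means of 5.87 in prKO and 5.68 in WT.

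All 4 genes of uptake and transport were called higher in prKO at 2 months, against 26.0% of all genes, with a median change of 1.12. Scarb1 read 10.06, 11.14 and 10.60 against 9.08 to 9.53 in WT, a 2.43-fold rise with no overlap (log2 1.28 ± 0.15, adjusted p = 9.3e-07, limma). Npc2 read 10.85, 9.61 and 9.91 against 8.27 to 8.71 and rose 3.19-fold (1.67 ± 0.17). The highest Npc2 value, in replicate 1, came from the array in which Adam7, an epididymal gene, stood at 11.70, and Npc2 is also secreted by the epididymis. Without the arrays high in Adam7 the Npc2 change was 1.35, still called (adjusted p = 7.9e-08, limma). Npc1 rose by 0.96 ± 0.11 and Stard4 by 0.88 ± 0.11. The second probe set of Npc1 read 4.84 in prKO and 4.61 in WT on average.

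Lipe was the 1 gene that fell in prKO at 2 months. It read 8.11, 7.82 and 8.42, a 2.54-fold fall (log2 change -1.35 ± 0.16, adjusted p = 1.8e-06, limma). It was also the 1 gene with every prKO array below the lowest WT array, at 9.23, against 13.8% of all genes. The mean of 7 spermatid markers was below WT as well, at 10.06 to 10.84 in prKO against 11.19 to 11.38. The part of spermatids in the fall of Lipe was not tested. Abca1 read 9.21, 9.61 and 9.35, above the WT range of 8.57 to 8.89, and rose 1.63-fold (0.70 ± 0.13). Abcg1 and Nr1h3 changed by 0.19 ± 0.10 and -0.21 ± 0.10 and were not called.

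Cell type markers also moved at 2 months. The mean of 7 spermatid markers lay between 10.06 and 10.84 in prKO, 9.5 and 10.56 in srKO, 11.30 and 11.45 in lrKO, and 11.19 and 11.38 in WT. For the 8 macrophage markers it ran from 7.47 to 8.10 in prKO, 7.34 to 7.86 in srKO, 6.78 to 7.06 in lrKO and 6.71 to 6.97 in WT. The Leydig mean ran from 9.63 to 10.27 in prKO, 9.53 to 10.12 in srKO, 8.79 to 9.12 in lrKO and 9.06 to 9.59 in WT. It covers genes that moved in opposite directions. In prKO 4 of 7 Leydig markers were higher and 1 lower (log2 changes from -3.15 to 2.22), against 26.0% and 22.4% of all genes. In srKO 4 were higher and 1 lower (-1.17 to 0.99), against 14.7% and 10.8%. In prKO 6 of 7 spermatid markers were lower and 7 of 8 macrophage markers higher, against 22.4% and 26.0% of all genes. In srKO these counts were 5 of 7 and 5 of 8, against 10.8% and 14.7%. The mean of the 6 endothelial markers ran from 6.94 to 7.93 in prKO, 6.51 to 6.99 in srKO, 5.91 to 6.07 in lrKO and 6.00 to 6.32 in WT, and 6 of 6 were higher in prKO and 4 of 6 in srKO. Of the Sertoli markers 7 of 10 were higher and 2 lower in prKO, of the peritubular myoid markers 4 of 5 were higher, and of the spermatocyte markers 6 of 7 were lower. The adipose mean was 8.12 and 6.71 in prKO replicates 1 and 3, against 4.92 to 5.43 in WT. The part of these shifts in the changes of the cholesterol genes was not tested.

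In the arrays labelled srKO at 2 months the genes split in direction. Of the 29, 8 were higher and 4 lower, where 25.4% of all genes were called, 14.7% higher and 10.8% lower, so the share called lower was close to the background. Of the enzymes, Cyp51 and Fdps fell and Msmo1 rose, and the median change of all 16 was -0.02. Cyp51 read 7.95, 8.66, 7.88 and 8.18, all below the WT minimum of 8.89, a 1.83-fold fall (log2 change -0.87 ± 0.11, adjusted p = 1.2e-05, limma). Fdps read 7.68, 7.95, 7.61 and 7.56 against 7.99 to 8.63 in WT, and so lay below every WT array (-0.63 ± 0.10, adjusted p = 0.00011, limma). With Lipe these were 3 of 29 genes wholly below WT, against 7.35% of all genes. Msmo1 rose by 0.51 ± 0.12.

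Lipe fell in these arrays as in prKO. It read 8.42, 8.25, 7.52 and 7.73, below the WT minimum of 9.23, a 2.80-fold fall (log2 change -1.48 ± 0.15, adjusted p = 7.1e-07, limma). The prKO and srKO changes were measured against the same WT arrays. The direct comparison of prKO with srKO gave 0.14 ± 0.18 for Lipe (adjusted p = 0.62, limma).

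Abca1 was the gene with the largest rise in the arrays labelled srKO. It read 9.76, 10.55, 9.82 and 9.81, all above the WT maximum of 8.89, and was 2.45-fold higher (log2 1.30 ± 0.12, adjusted p = 1.9e-07, limma). The value of 10.55 in replicate 2 stood apart from the other 3, and the same animal had the highest means of its group for the macrophage (7.86), Leydig (10.12) and endothelial (6.99) markers and for the 16 enzymes (7.97). The part of these in the Abca1 value was not tested. Scap (0.51 ± 0.09), Scarb1 (0.52 ± 0.13), Npc2 (0.68 ± 0.15) and Insig2 (0.31 ± 0.07) also lay above WT in every array, which with Abca1 makes 5 of 29 genes, against 9.52% of all genes. Srebf1 and Npc1 rose by 0.29 ± 0.09 and 0.33 ± 0.10, and Insig1 changed by -0.34 ± 0.12. Srebf1 was not called without srKO replicate 1 or 4 (adjusted p = 0.11 and 0.061, limma), and Npc1 not without srKO replicate 1 or 2 (0.056 and 0.13). Insig1 was not called without srKO replicate 1, 3 or 4 or without WT replicate 1, 2, 3, 4 or 6 (0.059 to 0.15). Scarb1 was not called with WT replicates 5 to 8 as the only controls (0.094).

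Direct comparison at 2 months placed 22 of the 29 genes higher in prKO than in srKO and 2 lower, against 13.4% and 12.1% of all genes (25.6% in all). The differences were 1.66 ± 0.14 for Hsd17b7, 1.58 ± 0.13 for Fdps and 1.47 ± 0.10 for Nsdhl. Insig1 differed by 1.33 ± 0.15. The 24 calls fell to 14 higher and 0 lower with only the 2 groups compared in the fit. The 2 genes lower in prKO were Abca1 (-0.59 ± 0.14) and Insig2 (-0.37 ± 0.09). Srebf1 lost its call without prKO replicate 1, Pmvk and Dhcr7 without replicate 2, and Scap without replicate 2 or 3 (adjusted p from 0.057 to 0.11, limma).

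The arrays labelled lrKO at 2 months differed from WT in 3 of the 29 genes, with Hsd17b7 and Scarb1 higher and Abca1 lower. Over all genes 0.184% were called, 0.110% higher and 0.0737% lower, which is 35 genes. Abca1 read 7.78, 7.83, 7.73 and 7.80, all below the WT minimum of 8.57, a 1.87-fold fall (log2 change -0.90 ± 0.12, adjusted p = 0.00095, limma). It was called under every setting tried, and it was the 1 of 29 genes wholly below WT, against 0.979% of all genes. The macrophage mean in lrKO was 6.78 to 7.06, overlapping WT, and the Leydig mean was 8.79 to 9.12, against 9.06 to 9.59 in WT. Of the 7 Leydig markers 0 were called higher and 2 lower, against 0.110% and 0.0737% of all genes. The part of these cell types in the Abca1 change was not tested.

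Hsd17b7 read 6.94, 6.63, 6.76 and 6.72 in lrKO at 2 months against 5.66 to 6.28 in WT, with no overlap, a 1.69-fold rise (log2 0.76 ± 0.11, adjusted p = 0.0035, limma). Scarb1 read 10.12, 10.11, 10.07 and 10.04 against 9.08 to 9.53, a 1.71-fold rise with no overlap (0.77 ± 0.13, adjusted p = 0.012). The Scarb1 call was lost without lrKO replicate 1, 2 or 3 (adjusted p = 0.052, 0.061 and 0.052, limma), with the log2 change between 0.76 and 0.78. With WT replicates 5 to 8 as the only controls it was 0.64 (adjusted p = 0.23).

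Other enzymes leaned the same way without being called. Every lrKO array lay above every WT array for Hmgcs1, Tm7sf2, Msmo1, Nsdhl and Dhcr7 besides Hsd17b7 and Scarb1, which is 7 of 29 genes against 0.810% of all genes. Dhcr7 read 8.60, 8.48, 8.46 and 8.42 against 7.62 to 7.98 in WT (0.67 ± 0.15, adjusted p = 0.081, limma). Msmo1 and Tm7sf2 changed by 0.58 ± 0.12 and 0.35 ± 0.07 (adjusted p = 0.061 for both). Of the 16 enzymes 15 had a positive change, with a median of 0.24, and 1 was called. With only WT and lrKO in the fit, or with array weights, 7 of the 29 genes were called.

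**Figure D3:**
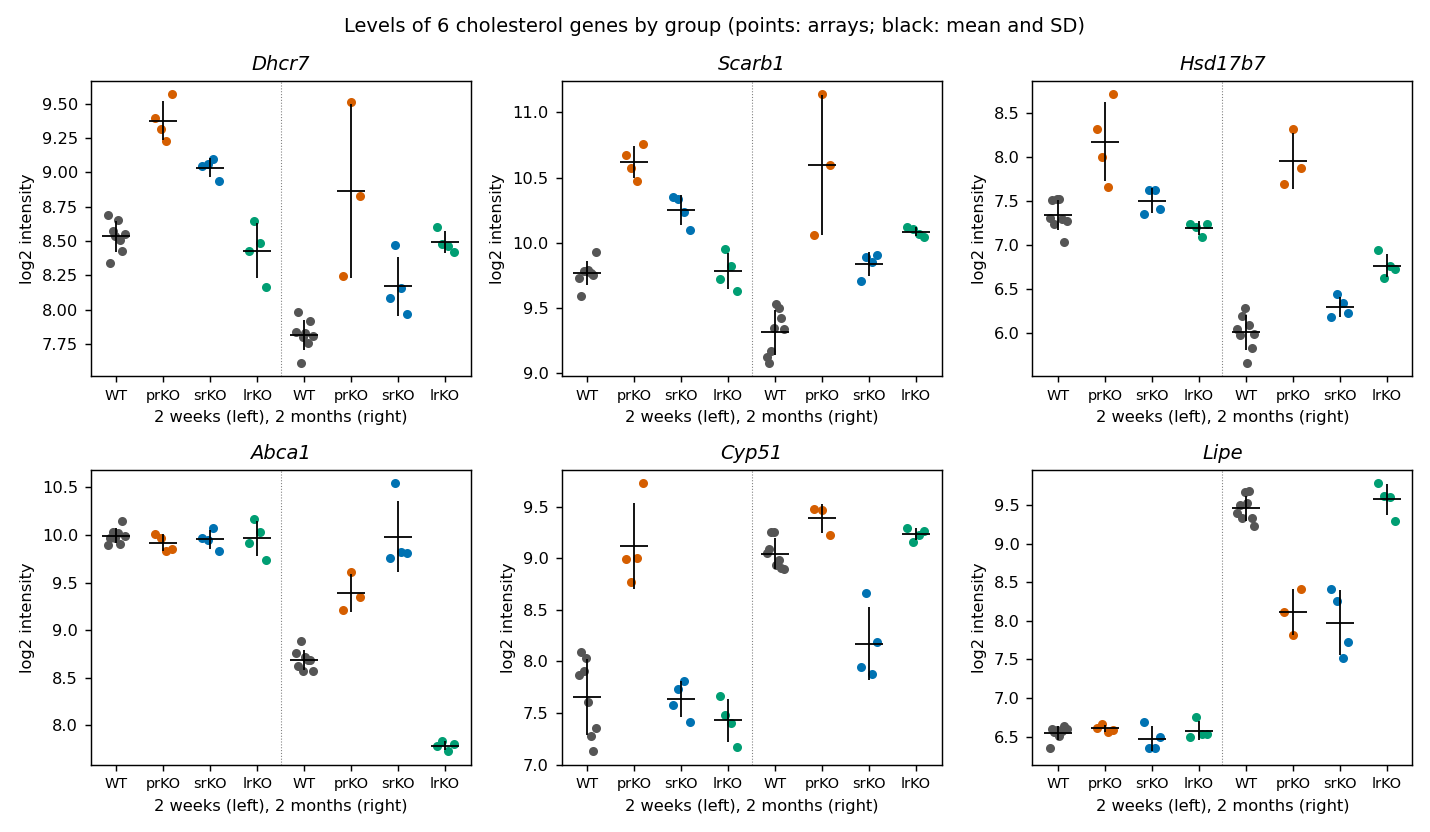
Log2 intensity of Dhcr7, Scarb1, Hsd17b7, Abca1, Cyp51 and Lipe in every array, by genotype at 2 weeks (left of the dotted line) and 2 months (right), with the group mean and SD in black and a separate vertical axis for each gene. At 2 months Abca1 is highest in srKO (9.76 to 10.55) and lowest in lrKO (7.73 to 7.83), and Scarb1 in lrKO (10.04 to 10.12) lies above WT (9.08 to 9.53).

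The level of Abca1 had a different order at each age. At 2 weeks the group means were 9.99 ± 0.08 in WT (SD, n = 8), 9.92 ± 0.09 in prKO, 9.96 ± 0.10 in srKO and 9.96 ± 0.18 in lrKO (n = 4 each), and no group differed from WT beyond its spread. At 2 months they were 9.98 ± 0.38 in srKO, 9.39 ± 0.20 in prKO (n = 3), 8.69 ± 0.10 in WT and 7.79 ± 0.04 in lrKO, in that order, and the ranges of neighbouring groups did not overlap. The change of the genotype effect with age was called in each line, at 0.77 ± 0.14 for prKO, 1.33 ± 0.14 for srKO and -0.88 ± 0.14 for lrKO (adjusted p = 8.4e-05, 1.1e-08 and 0.0013, limma). For lrKO it was not called with WT replicates 5 to 8 as the only controls (-0.83, adjusted p = 0.061, limma). The 3 lines were set against the same WT arrays.

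Scarb1 was above WT in prKO and srKO at both ages and in lrKO at 2 months. Its mean at 2 weeks was 10.62 ± 0.12 in prKO, 10.25 ± 0.12 in srKO, 9.78 ± 0.14 in lrKO (SD, n = 4 each) and 9.77 ± 0.09 in WT (n = 8). At 2 months it was 10.60 ± 0.54 in prKO (n = 3), 10.09 ± 0.04 in lrKO, 9.84 ± 0.09 in srKO and 9.32 ± 0.17 in WT. At 2 months 3 of 4 lrKO arrays lay within the range of prKO, and replicate 4 (10.04) lay just below its lowest array (10.06).

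Between 2 weeks and 2 months of age, WT testes lowered most of these genes and raised a few. Of the 29 genes 20 were lower and 6 higher at 2 months, against 55% and 26.7% of all genes (81.6% in all), and the share lower was thus somewhat above the background. The median log2 change was -0.72 for the 29 genes and -0.24 for all genes. After repeated quantile normalization or centring of each array, the median of all genes was -0.13 or -0.12, and 18 or 19 of the 29 genes were lower and 7 higher. The values below are on the deposited scale and should be read against that general shift.

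The genes that rose in WT were 4 enzymes, Lipe and Nr1h3. Lipe went from a mean of 6.55 ± 0.09 to 9.46 ± 0.16 (SD, n = 8 each), a 7.53-fold rise with no overlap between ages (log2 2.91 ± 0.10, adjusted p = 4.8e-25, limma). Fdft1 rose 3.28-fold (1.71 ± 0.08), from 9.17 to 9.75 at 2 weeks to 11 to 11.30 at 2 months. Cyp51 rose 2.62-fold (1.39 ± 0.13), from 7.13 to 8.09 to 8.89 to 9.25, also with no overlap. Sqle rose by 0.81 ± 0.06, Nr1h3 by 0.46 ± 0.08 and Fdps by 0.37 ± 0.11.

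The other enzymes that changed were lower in the adult testis. Hsd17b7 fell 2.52-fold (log2 change -1.33 ± 0.11), Hmgcs1 2.33-fold (-1.22 ± 0.08) and Msmo1 2.24-fold (-1.17 ± 0.10). Nsdhl, Ebp, Mvd, Dhcr7 and Lss changed by -0.79, -0.80, -0.77, -0.72 and -0.63. Mvk and Sc5d were -0.28 and -0.24. The Mvk call was lost after quantile normalization (adjusted p = 0.16, limma), and Sc5d lost its call after both rescalings and without 2-week replicate 3 or 2-month replicate 8 (0.054 to 0.25). Tm7sf2 and Pmvk were not called, at -0.10 ± 0.07 and 0.11 ± 0.08, and Pmvk was called higher after both rescalings (0.28 and 0.23).

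Regulators and transporters shared the fall. Scap changed by -1.76 ± 0.07, Srebf2 by -1.59 ± 0.09, Insig1 by -1.30 ± 0.10 and Srebf1 by -1.0 ± 0.08, whereas Insig2 was at -0.08 ± 0.07. Npc1 fell 3.62-fold (-1.86 ± 0.07), Stard4 by 1.02, Npc2 by 0.64 and Scarb1 by 0.45 on the log2 scale. Abca1 and Abcg1 changed by -1.30 ± 0.08 and -1.11 ± 0.08. The spermatid mean in WT went from 5.99 to 6.22 at 2 weeks to 11.19 to 11.38 at 2 months, the Sertoli mean from 9.62 to 9.86 to 8.25 to 8.52, and the part of these shifts was not tested.

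**Figure D4:**
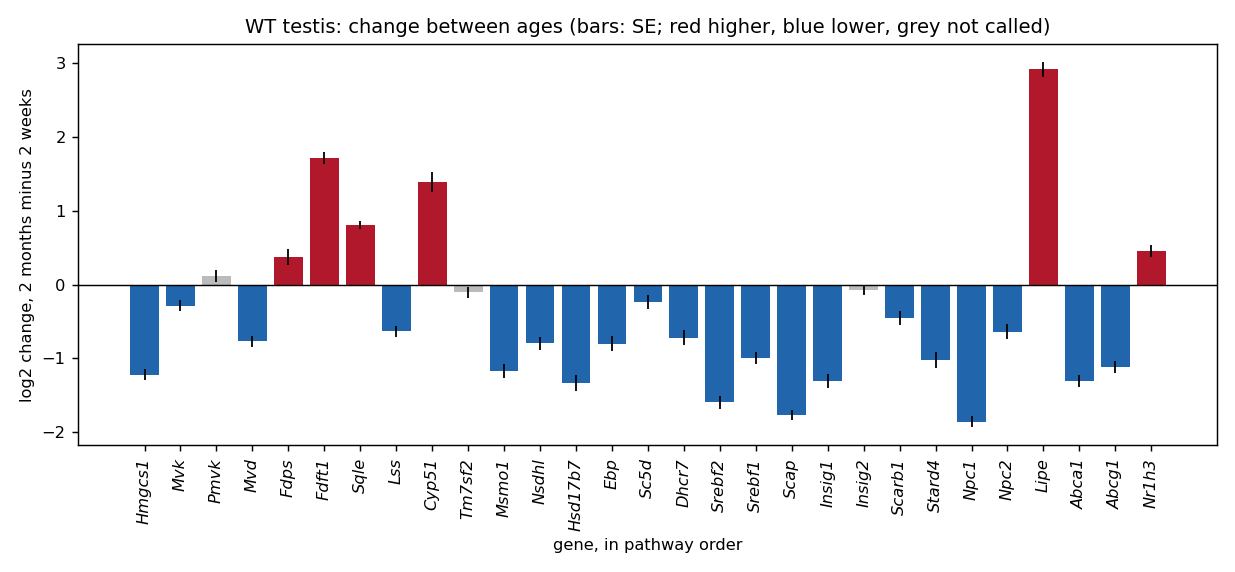
Log2 change of each of the 29 genes in WT testis from 2 weeks to 2 months (n = 8 arrays at each age), with bars from 0, standard errors as lines, red for called higher, blue for called lower and grey for not called. Lipe stands at 2.91 and Fdft1, Cyp51 and Sqle at 1.71, 1.39 and 0.81, while Npc1, Scap and Srebf2 lie lowest; the median of all genes was -0.24.

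The difference between the 2-month and the 2-week effect was tested for each line in a model of all 8 groups. For prKO it was called positive in 15 of the 29 genes and negative in 5, against 15.8% and 12.3% of all genes (28.2% in all). Npc2 (1.34 ± 0.18), Hsd17b7 (1.12 ± 0.19), Msmo1 (0.85 ± 0.17) and Ebp (0.83 ± 0.18) gained most. The 5 that lost were Lipe (-1.40 ± 0.18), Cyp51, Nr1h3 (-0.51 ± 0.14), Fdft1 and Sqle. Scarb1 (0.43 ± 0.16) and Abcg1 (0.40 ± 0.15) lost the call under 15 and 16 of the other settings, among them leaving out any 1 of the 2-month prKO replicates 2 and 3 or the 2-week prKO replicates 2 and 3. Srebf2 lost it without replicate 3 of prKO at either age, Stard4 without 2-week prKO replicate 3 or 2-month prKO replicate 1, Fdft1 without 2-week prKO replicate 4 and Nr1h3 without 2-month prKO replicate 1 (adjusted p from 0.051 to 0.08, limma). For srKO 3 were positive and 3 negative, against 8.49% and 8.76% of all genes (17.2% in all), near the background. For lrKO 2 were positive (Hsd17b7 and Scarb1) and 1 negative (Abca1), against 0.0526% and 0.0474% (0.10% in all), and 1 of these was called without 2-week lrKO replicate 1 or 3 or 2-month lrKO replicate 1 or 3.

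Genes of neighbouring steps were read from further lists. Of 9 measured genes of SREBP-driven fatty acid synthesis, 6 were higher in prKO at 2 weeks and 8 at 2 months, with 0 lower, against 7.90% and 26.0% of all genes called higher. Scd1, the stearoyl-CoA desaturase, rose by 2.23 ± 0.42 and 2.48 ± 0.25, and Fads1, a fatty acid desaturase, by 0.85 ± 0.12 and 1.56 ± 0.13. Elovl6, an elongase, rose by 0.91 ± 0.23 at 2 weeks and Acly, which supplies cytosolic acetyl-CoA, by 1.73 ± 0.09 at 2 months. At 2 weeks Scd1 read 8.51 to 9.39 in prKO and 5.75 to 8.61 in WT, where replicates 2 and 4 read 8.61 and 7.91 and the former overlapped prKO. In srKO 1 was higher at 2 weeks (Acaca, 0.32 ± 0.05), against 0.784% of all genes. At 2 months 5 were higher and 1 lower in srKO, against 14.7% and 10.8% of all genes. Among them were Acly at 0.67 ± 0.08, Fads2 at 0.46 ± 0.10 and Fasn at 0.32 ± 0.07. In lrKO 0 were called at either age by limma, against 0.10% of all genes at 2 weeks and 0.184% at 2 months. In prKO 1 of 5 adipose markers was also called higher at 2 weeks, and 4 of 5 at 2 months. The adipose mean at 2 months ran from 5.29 to 8.12 in prKO and from 4.92 to 5.43 in WT. The part of adipose tissue in the changes of the fatty acid genes was not tested.

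Genes that turn cholesterol into steroids, several of which are also in the Leydig list, rose by larger amounts in prKO. Of 8 measured, 6 were higher at 2 weeks and 0 lower, against 7.90% and 2.59% of all genes. At 2 months 6 were higher and 1 lower, against 26.0% and 22.4%. Star, which moves cholesterol into mitochondria, rose by 2.98 ± 0.23 and 2.22 ± 0.24. Cyp11a1, which cleaves the side chain, rose by 2.93 ± 0.18 at 2 weeks. Cyp21a1, the steroid 21-hydroxylase and a gene of the adrenal cortex list, rose by 4.22 ± 0.23 and 3.37 ± 0.29. Hsd3b6, an enzyme of adult Leydig cells, fell by 3.15 at 2 months. Hsd3b6 also fell by 2.27 in srKO at 2 weeks, where it was the 1 of 8 genes called, against 0.873% of all genes. In srKO at 2 months 4 were higher and 1 lower, against 14.7% and 10.8% of all genes, with Cyp21a1 at 1.82 ± 0.26, Hsd3b6 at -1.17 ± 0.28 and Hsd3b1 at 0.99 ± 0.21. In lrKO at 2 months Cyp21a1 was higher (1.34 ± 0.26) and Hsd3b6 lower (-1.59 ± 0.28), against 0.110% and 0.0737% of all genes. At 2 weeks 0 were called in lrKO, against 0.10% of all genes.

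Of 15 measured genes of cholesterol trafficking outside the main list, 6 were higher and 0 lower in prKO at 2 weeks, against 7.90% and 2.59% of all genes. At 2 months 12 were higher and 1 lower, against 26.0% and 22.4%. Lrp1, a lipoprotein receptor, rose by 0.72 ± 0.09 and 1.78 ± 0.18. Nceh1, a cholesteryl ester hydrolase, rose by 0.60 ± 0.09 at 2 weeks, and the lysosomal acid lipase Lipa by 1.58 ± 0.14 at 2 months. In srKO at 2 months 7 were higher and 1 lower, against 14.7% and 10.8% of all genes, with Lrp1 at 0.75 ± 0.17 and Lipa at 0.72 ± 0.12. At 2 weeks 0 were called in srKO, against 0.873% of all genes. Of 6 further genes of sterol steps and SREBP processing, 1 was called in prKO at 2 weeks, Lbr, a sterol reductase that also binds lamin (-0.25 ± 0.07), against 10.5% of all genes called. At 2 months 3 were higher and 1 lower in prKO, near the 48.4% of all genes called, among them the SREBP proteases Mbtps1 and Mbtps2 at 0.49 ± 0.08 and 0.52 ± 0.10. In srKO at 2 months these 2 of the 6 were the genes called, at 0.32 ± 0.07 and 0.29 ± 0.09. That count was near the 25.4% of all genes called there.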

How the data were processed

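RNA of whole testis was measured on Affymetrix arrays, 1 array per animal, and groups were taken from the sample titles. The deposited values are log2 intensities of probe sets, which the authors normalized with RMA per the submitters' processing notes; its version and settings are not given in these sources. The number of arrays sets the precision. Values lay between 2.54 and 13.62, and 0 pairs of arrays were identical. The median array intensity was 5.96 to 6.02 at 2 weeks and 5.81 to 5.96 at 2 months. No further normalization was applied.

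Of 41345 probe sets, 23521 had 1 gene symbol and were used, 1814 had several and 16010 had none. Where a gene had several probe sets (1082 genes) the one with the highest mean was used. Genes were tested where the mean of at least 1 group exceeded the 25th percentile of all values, 4.62. A linear model of the 4 genotypes was fitted at each age with limma 3.58.1 (lmFit, eBayes) in R 4.3.3, and a model of all 8 groups for comparisons between ages. P-values were two-sided and adjusted by the Benjamini-Hochberg method across every tested gene, and a call means an adjusted p under 0.05. A value after ± is the standard error of a log2 change unless SD is stated. The labels call the samples biological replicates, and the p-values measure the spread between them. The fits were tested on simulated data.

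Cholesterol genes and lists were chosen with earlier results of these data known. Every gene of the main list is named. From each further list the text gives counts and at most 3 called genes with the largest changes in each comparison with WT, and cell type markers are given as list means. Other settings were the filter, the averaging of probe sets, 2 rescalings, weights for arrays, trended and robust eBayes, other sets of groups in the fit, the replicate number as a block, WT replicates 1 to 4 or 5 to 8 alone and each array left out. Leaving out the arrays high in Adam7 was an alternative added after seeing the data.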

Additional observations from a re-analysis of the deposited data

Results flagged for a closer look

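Some single arrays stood apart from the rest of their group, by a gap larger than Dixon's critical value for its highest or lowest array. This was so in 14 of 203 combinations of gene and group, where chance gives about 1 in 20. The prKO group at 2 months, with 3 arrays, was not checked in this way. At 2 weeks prKO replicate 4 was the highest of its group by such a gap for Fdft1 (10.18), Sqle (9.01), Tm7sf2 (7.93) and Msmo1 (9.31), and the next arrays read 9.79, 8.67, 7.32 and 8.74. In lrKO at 2 weeks Hmgcs1 was low in replicate 4 (10.74), Fdft1 high in replicate 3 (9.30) and Lipe high in replicate 2 (6.76). In srKO at 2 weeks Msmo1 was low in replicate 4 (7.86). In WT at 2 weeks Msmo1 was low in replicate 7 (7.83), Npc2 high in replicate 4 (9.34) and Lipe low in replicate 1 (6.35). At 2 months Sqle was high in WT replicate 6 (9.40), and Scap (8.43) and Abca1 (10.55) were high in srKO replicate 2.

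The effect of the genotype differed between ages in 29 cases by the interaction term of the model of all 8 groups (limma, adjusted p under 0.05). In prKO the effect was higher at 2 months for Hmgcs1 (0.73), Mvd (0.48), Msmo1 (0.85), Hsd17b7 (1.12), Ebp (0.83), Srebf2 (0.49), Srebf1 (0.67), Scap (0.80), Insig1 (0.60), Scarb1 (0.43), Stard4 (0.59), Npc1 (0.69), Npc2 (1.34), Abca1 (0.77) and Abcg1 (0.40) on the log2 scale. It was lower for Fdft1 (-0.47), Sqle (-0.37), Cyp51 (-1.12), Lipe (-1.40) and Nr1h3 (-0.51). In srKO it was higher for Scap (0.36), Npc2 (0.62) and Abca1 (1.33) and lower for Fdps (-0.85), Cyp51 (-0.85) and Lipe (-1.41). In the arrays labelled lrKO it was higher for Hsd17b7 (0.90) and Scarb1 (0.76) and lower for Abca1 (-0.88).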

How the results depend on the processing

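No gene changed direction in a comparison where it was called. Of the called counts, that of prKO at 2 weeks (20) fell to 11 with the replicate number as a block and to 13 with WT replicates 1 to 4 alone, and lay between 12 and 20 with single arrays left out. For lrKO at 2 weeks the count of 0 became 1 with WT replicates 1 to 4 alone. For lrKO at 2 months the 3 calls became 7 with array weights, 7 with only the groups compared and 5 with all 8 groups, and 2 to 4 with single arrays left out. Hsd17b7 lost its call with the replicate block there (adjusted p = 0.079, limma). For prKO against srKO at 2 months 24 became 14 with only the groups compared. For the change of the lrKO effect with age 3 became 5 with array weights, 5 with only the groups compared, 1 with the replicate block and 0 with WT replicates 5 to 8 alone, and 1 to 3 with single arrays left out. The other counts stayed within 1.5 times. With the replicate block, Msmo1 in srKO at 2 months also lost its call (0.052). Of 45 pairs of arrays with the same replicate number, 8 had deviations correlated above 0.1 (range -0.62 to 0.44), so the numbers do not show a pairing. Without the arrays high in Adam7, Cyp51 in prKO at 2 months was not called (0.087).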
